A study of Mus musculus with 2 samples.

Results

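The collagen and laminin chain genes were described across cells of the mouse brain vasculature. The members were the genes whose symbol names a collagen chain (Col, a number, a and a number) or a laminin chain (Lama, Lamb or Lamc and a number), which gave 55 of the 30905 genes in the count tables: 44 collagen and 11 laminin chains. The data were 2 single-cell RNA libraries, replicate 1 and replicate 2, prepared from brain cells of male Dmp1Cre-COX8Dendra2 mice of 4 to 6 weeks. These mice carry a Cre recombinase under sequences of Dmp1, a gene known mainly from bone and tooth cells, and a Dendra2 fluorescent protein directed to mitochondria, and only cells with Dendra2 signal were sorted, so every cell type here shares the same genotype, treatment and sort. No Dendra2-negative cells and no second genotype were analysed here. The labels do not say whether the libraries came from separate animals. The p-values weigh each difference between classes against its variation from library to library, estimated with information shared across genes. That spread may be technical.

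Collagen IV and the laminins are the network-forming proteins of basement membranes, the thin sheets that enclose endothelial cells, pericytes and smooth muscle cells. Collagen IV assembles as trimers of α chains, and each laminin is a trimer of 1 α, 1 β and 1 γ chain, with the α chain setting much of the binding to cell receptors. Fibrillar collagens such as types I, III and V form the cables of the adventitia around larger vessels and are typical products of fibroblasts. In the brain the vascular basement membrane is part of the blood-brain barrier, which is the subject named in the title of the series.

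Cells were put into 6 classes by gates on 6 genes, none of which is a member. Levels in the gates are unique molecular identifiers (UMIs, 1 per captured transcript) per 10000 UMIs of the cell. Smooth muscle cells had Acta2, the smooth muscle actin, at 80 or more, and were divided by calponin, Cnn1, into Cnn1-high (3 or more, 1168 and 126 cells in replicate 1 and replicate 2) and Cnn1-low cells (2419 and 664). Transitional mural cells had Acta2 from 20 to under 80 with Rgs5 at 80 or more (715 and 353 cells). Pericytes, the mural cells of capillaries, had Vtn at 50 or more with Acta2 under 20 (2341 and 3289 cells). Mural cells with 2 or more UMIs of the chemokine gene Ccl19 were taken first, as a class of their own (103 and 10 cells). Endothelial cells had Cldn5 at 5 or more with Vtn under 20 (248 and 1125 cells).

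The libraries stood apart in depth and make-up. Replicate 1 held 59026190 UMIs in 8236 barcodes and replicate 2 held 26218090 in 7077, and the kept cells had medians of 6897 and 3016 UMIs. The libraries shared 14 barcodes. Cnn1-high smooth muscle made up 15.2% of the kept cells of replicate 1 and 1.96% of replicate 2, and endothelium 3.22% and 17.5%. All 6 further markers of smooth muscle, of pericytes and of endothelium had UMIs in their own class in both libraries, and the sum of each list was highest there in both. The smooth muscle list summed to 42324 and 35292 CPM (UMIs per 1000000 UMIs of the class) in Cnn1-high cells against 3768 and 3009.8 in pericytes. The pericyte list summed to 8669 and 6066 CPM in pericytes, and the endothelial list to 14038 and 12136 CPM in endothelium. At least 1 UMI of the fibroblast genes Dcn, Lum, Pdgfra or Slc6a13 was in 32.9% and 27.4% of pericytes and in 35.0% and 40% of Ccl19-positive cells, against at most 3.63% in the other classes. Slc6a13 itself was at 111 and 117 CPM in pericytes.

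Of the 55 members, 27 reached a mean of 20 CPM over the libraries in at least 1 class and are described by name, 20 collagens and 7 laminins. The members just inside this level were Col4a4, Col26a1 and Col28a1, with 29.4, 34.2 and 34.7 CPM in their highest class. Those just outside were Col4a6, Col7a1 and Col13a1, with 18.2, 15.1 and 14.6 CPM. Together the 55 members summed to 5694 and 4491 CPM in pericytes (replicate 1 and replicate 2), 3777 and 3228 in Cnn1-high smooth muscle, 3477 and 2934 in Cnn1-low smooth muscle, 4066 and 3262 in transitional cells and 1889 and 1814 in endothelium. Ccl19-positive cells stood highest in both libraries, with 15248 and 6665. Endothelium was lowest in both libraries, and pericytes were highest of the 5 classes that held 20 or more cells in both libraries. All CPM values are shares of a class's transcripts, so they do not give absolute amounts per cell. Oligodendrocytes served as a reference for free RNA, on the assumption that they make little of these transcripts. The 27 named members ranged there from 0 to 26.3 CPM with medians of 1.38 and 0.669, and 19 were under 5 CPM in both libraries. The assumption may not hold for Lama2, with a mean of 20.1 CPM in oligodendrocytes. It had means of 0.838 CPM in macrophage-gated cells and 3.48 in oligodendrocyte precursors.

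**Figure D1:**
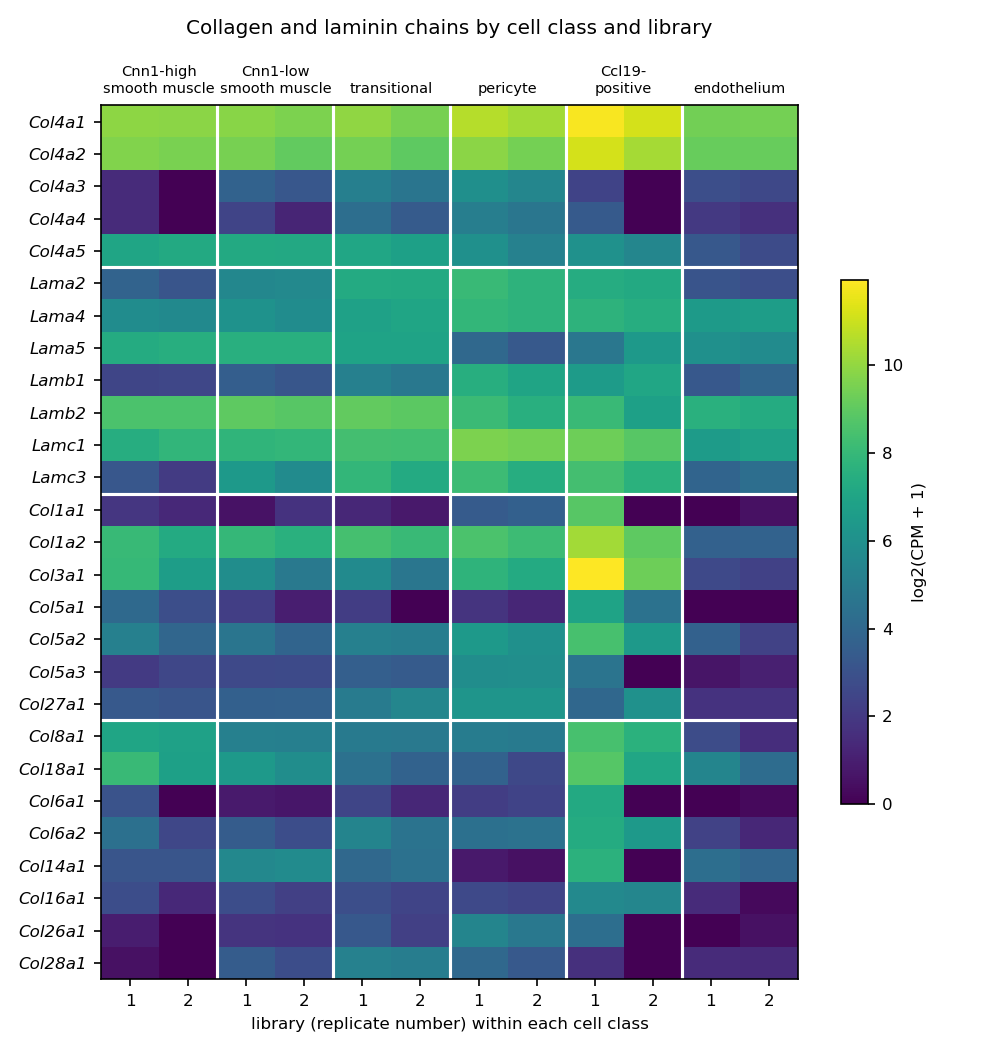
Levels of the 27 named collagen and laminin chain genes in 6 classes of cells in each library, as colour on a log2(CPM + 1) scale, with genes in rows and classes in columns. Col4a1 and Col4a2 were the most abundant members in each class of both libraries except that Col3a1 was above them in the Ccl19-positive cells of replicate 1.

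Differences between classes were tested on UMI sums per class and library with edgeR's quasi-likelihood test, with library as a block and Benjamini-Hochberg adjustment over all genes tested. The Ccl19-positive class had only 10 cells in replicate 2 and was left out of the fit, so it has values and no test. Of the 55 members, 36 passed the filter on low counts, and the others are not covered by any count below. A fold change is given as log2 ± its standard error (SE), for 2 libraries. The 5 comparisons share classes, so their values stand side by side and are not independent of each other.

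Collagen IV was carried by the same 2 chains in every class, with the minor chains divided between pericytes and smooth muscle. The chains α1 and α2 form the common collagen IV network. Col4a1 was at 1540.3 and 1256 CPM in pericytes in replicate 1 and replicate 2, 954 and 926 in Cnn1-high and 893 and 758 in Cnn1-low smooth muscle, 991 and 714 in transitional cells and 681 and 703 in endothelium. Pericytes were the highest of these 5 classes in both libraries, and the order of the other 4 differed between the libraries. Col4a2 was at 922 and 701 CPM in pericytes, 818 and 747 in Cnn1-high cells, 721 and 537 in Cnn1-low cells, 690.3 and 498 in transitional cells and 575 and 561 in endothelium. Here the pericytes of replicate 2 lay below the Cnn1-high cells of both libraries. The smooth muscle minus pericyte difference was 0.12 ± 0.12 (SE, adjusted p = 0.441) for Col4a2 by edgeR. For Col4a1 it was -0.34 ± 0.12 (SE, adjusted p = 0.044), a call that was lost in 6 of the 10 other settings, among them DESeq2, edgeR's RLE scaling and the fit with no library block. Both chains were higher in pericytes than in endothelium, Col4a1 by 0.91 ± 0.14 (SE, adjusted p = 0.000418) and Col4a2 by 0.40 ± 0.14 (SE, adjusted p = 0.0377) in edgeR, the latter lost in 5 of the 10 settings. Col4a1 made up 58.6% and 60.7% of collagen IV UMIs in pericytes and 49.7% and 50.3% in Cnn1-high smooth muscle. For Col4a2 the shares were 35.1% and 33.8% in pericytes and 42.6% and 40.6% in Cnn1-high cells. Kits that read the 3′ end give about 1 UMI per transcript whatever its length, so these shares compare transcripts without a length term, although capture can differ between genes.

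The α3 and α4 chains, which with α5 form the collagen IV of the kidney glomerulus, were highest in pericytes. Col4a3 was at 59.95 and 43.8 CPM in pericytes, 34.5 and 23.8 in transitional cells, 12.6 and 8.45 in Cnn1-low and 1.801 and 0 in Cnn1-high smooth muscle, and 6.35 and 4.95 in endothelium. In both libraries it declined in that mural order, and the 2 libraries of neighbouring mural classes did not overlap. Col4a4 followed with 33.8 and 24.9, 18.9 and 9.68, 4.49 and 1.35 and 1.801 and 0 CPM in the same order of mural classes. The smooth muscle minus pericyte difference was -3.35 ± 0.17 (SE, adjusted p = 1.53e-07) for Col4a3 and -3.42 ± 0.25 (SE, adjusted p = 1.76e-06) for Col4a4 in edgeR's test. Within smooth muscle, Col4a3 was lower in Cnn1-high than in Cnn1-low cells, at -2.72 ± 0.29 (SE, edgeR adjusted p = 0.000656), whereas the Col4a4 difference of -1.12 ± 0.41 did not pass (adjusted p = 0.194).

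Col4a5, the α5 chain, was higher in smooth muscle and transitional cells than in pericytes. It was at 152 and 146 CPM in Cnn1-low cells, 129 and 153 in Cnn1-high cells, 134 and 110.2 in transitional cells, 63.2 and 37.2 in pericytes and 8.66 and 5.59 in endothelium. Every smooth muscle and transitional value lay above both pericyte values, and both pericyte values above both endothelial values. Col4a5 was 1.86 ± 0.16 (SE, adjusted p = 6.22e-06) higher in smooth muscle than in pericytes and 1.40 ± 0.18 (SE, adjusted p = 0.000362) higher in transitional cells than in pericytes by edgeR. Col4a6, the α6 chain, is named because it is the genomic partner of Col4a5, a choice made after its values were seen. It had 19.2 and 17.2 CPM in Cnn1-low cells, 14.8 and 15.8 in Cnn1-high cells, 16.9 and 12.7 in transitional cells, 11.1 and 8.34 in pericytes and 0.577 and 0.215 in endothelium. Its smooth muscle minus pericyte difference was 1.07 ± 0.17 (SE, adjusted p = 0.000397) in edgeR, and its transitional minus pericyte difference of 0.73 ± 0.20 (SE, adjusted p = 0.0331) was lost in 5 of the 10 other settings.

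**Figure D2:**
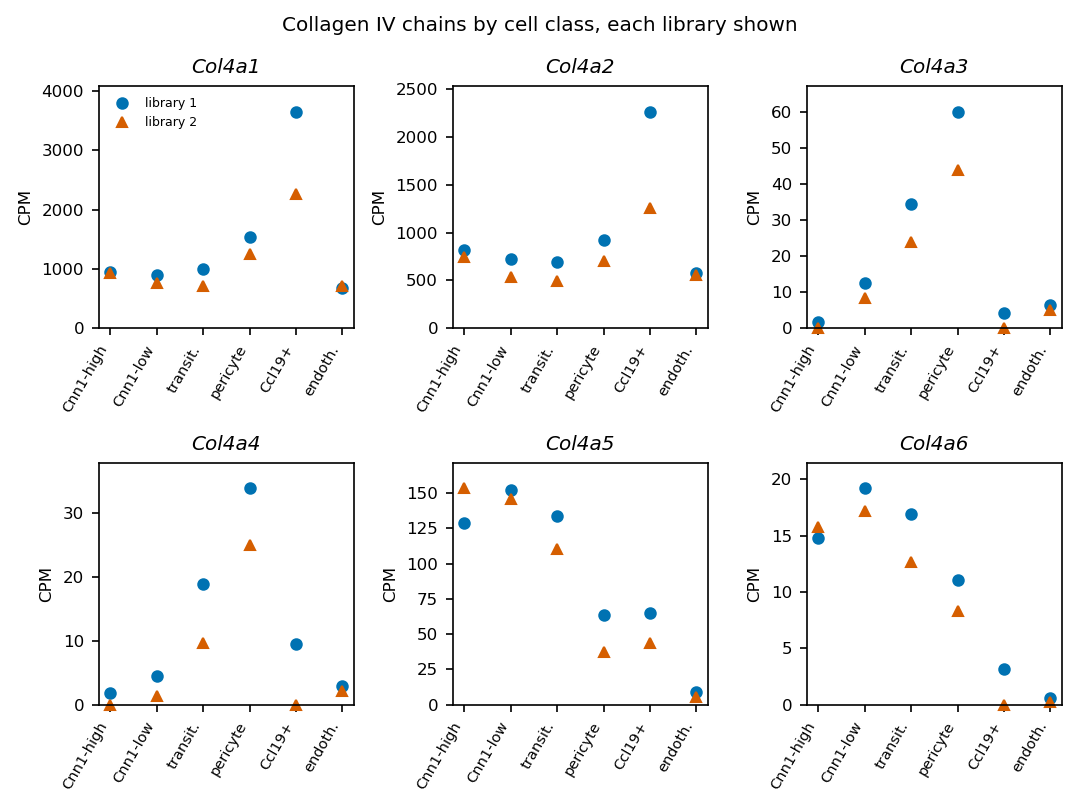
Levels (CPM, linear axes) of the 6 collagen IV chain genes in 6 classes, with circles for replicate 1 and triangles for replicate 2 (library 1 and library 2 in the key); axes differ between panels, and the Ccl19-positive class of replicate 2 has 10 cells. Col4a3 and Col4a4 peak in pericytes in both libraries, and Col4a5 and Col4a6 lie higher in smooth muscle than in pericytes.

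The 6 collagen IV genes lie in 3 head-to-head pairs. In GENCODE M21 (GRCm38), Col4a1 (ENSMUSG00000031502, chromosome 8, 11198423 to 11312826, minus strand) and Col4a2 (ENSMUSG00000031503, chromosome 8, 11312805 to 11449287, plus strand) start 21 bases apart. Col4a3 (chromosome 1, 82586921 to 82722059, plus strand) and Col4a4 (chromosome 1, 82448423 to 82586849, minus strand) start 72 bases apart. Col4a5 (chromosome X, 141475385 to 141689234, plus strand) and Col4a6 (chromosome X, 141165403 to 141474076, minus strand) start 1309 bases apart. Because the starts of the Col4a5 and Col4a6 pair are far enough apart to be read separately, their windows before the gene start are shown, from RefSeq on GRCm38.p6, chosen because both genes were higher in smooth muscle than in pericytes. Capitals mark CCAAT on either strand; the other motifs searched were GGGCGG, the TATA box letters TATAAA and the CArG motif bound by serum response factor, each on both strands.
Col4a5, chrX:141475169-141475369, plus strand: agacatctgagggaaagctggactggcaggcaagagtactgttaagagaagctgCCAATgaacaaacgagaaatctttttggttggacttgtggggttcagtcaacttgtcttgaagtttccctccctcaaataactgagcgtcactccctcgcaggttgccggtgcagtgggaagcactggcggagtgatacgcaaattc
Col4a6, chrX:141474096-141474326, minus strand: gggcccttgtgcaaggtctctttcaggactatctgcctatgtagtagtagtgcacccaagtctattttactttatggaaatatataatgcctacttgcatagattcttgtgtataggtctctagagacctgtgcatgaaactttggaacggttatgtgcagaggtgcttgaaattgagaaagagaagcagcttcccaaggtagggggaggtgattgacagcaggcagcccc
CCAAT occurred 1 time in the 201 bases of Col4a5 and in 28.6% of all 32851 promoter windows cut to that length. None of the 4 motifs occurred in the 231 bases of Col4a6, where windows of that length held CCAAT in 32.3%, GGGCGG in 29.97%, TATAAA in 11.8% and the CArG motif in 1.42%. A match is a description of the letters and not of factor binding.

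The laminin α chain changed along the mural classes from Lama2 and Lama4 in pericytes to Lama5 in smooth muscle. Lama5 (ENSMUSG00000015647, GRCm38 chromosome 2, 180176373 to 180225859, minus strand) encodes the α5 chain, found in mature vessel basement membranes. It was at 184 and 183 CPM in Cnn1-low cells, 161 and 175 in Cnn1-high cells, 121 and 121 in transitional cells, 61.8 and 53.3 in endothelium and 15.6 and 9.02 in pericytes. The values of the 5 classes did not overlap, with Cnn1-low and Cnn1-high cells next to each other; their difference of -0.07 ± 0.16 (SE, adjusted p = 0.956) did not pass edgeR's test. In edgeR, smooth muscle exceeded pericytes by 4.16 ± 0.17 (SE, adjusted p = 4.02e-08) and endothelium by 1.84 ± 0.16 (SE, adjusted p = 3.49e-06), and pericytes lay below endothelium, at -2.32 ± 0.19 (SE, adjusted p = 2.94e-06). A Lama5 UMI was found in 74.5 and 60.3% of Cnn1-high cells and 6.58 and 2.25% of pericytes, against 4.65 and 1.63% of oligodendrocytes. Thinned to 2000 UMIs per cell, with 3 and 2 Cnn1-high cells, 84 and 829 pericytes and 9 and 8 oligodendrocytes left out as shallower, these shares were 27.3 and 30.6%, 2.93 and 1.55% and 1.17 and 0.333%. Median depths were 9674 and 5104.5 UMIs for the Cnn1-high cells, 4310 and 2501 for pericytes and 16284 and 10384 for oligodendrocytes. The window before the Lama5 start is shown because this gene has a large and replicated difference between smooth muscle and pericytes; capitals mark GGGCGG on either strand.
Lama5, chr2:180225905-180226109, minus strand: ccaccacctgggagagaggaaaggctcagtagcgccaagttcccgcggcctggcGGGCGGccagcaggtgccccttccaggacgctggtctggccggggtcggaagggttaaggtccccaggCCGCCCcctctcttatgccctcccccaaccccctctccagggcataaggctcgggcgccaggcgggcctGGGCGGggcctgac
GGGCGG occurred 3 times, and 25.6% of all promoter windows of 205 bases held it at least 1 time. CCAAT, the letters TATAAA and the CArG motif did not occur.

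Lama2, whose α2 chain is the laminin of muscle basement membranes and whose loss causes a muscular dystrophy, was at 268 and 207 CPM in pericytes. It was at 158 and 150.5 CPM in transitional cells, 45.5 and 47.7 in Cnn1-low cells, 12.9 and 7.901 in Cnn1-high cells and 7.51 and 6.24 in endothelium. The 4 mural classes were in the same order in both libraries with no overlap. The smooth muscle minus pericyte difference was -2.995 ± 0.12 (SE, adjusted p = 3.45e-08) in edgeR, and Cnn1-high cells were lower than Cnn1-low cells, at -1.86 ± 0.18 (SE, adjusted p = 0.000428). Lama4, a chain of the endothelial basement membrane, was at 239 and 206 CPM in pericytes, 114 and 128 in transitional cells, 88.3 and 98.9 in endothelium, 67.1 and 54.1 in Cnn1-low and 54.9 and 48.99 in Cnn1-high cells. Pericytes exceeded endothelium, by 1.14 ± 0.15 (SE, adjusted p = 0.000126), and smooth muscle was below endothelium, at -0.49 ± 0.14 (SE, adjusted p = 0.0135), both in edgeR. As shares of all laminin α UMIs, Lama5 made up 70.1% and 75.5% in Cnn1-high cells, 61.9% and 64.3% in Cnn1-low cells, 30.8% and 30.2% in transitional cells, 37.7% and 32.1% in endothelium and 2.94% and 2.11% in pericytes. Lama2 held 50.8% and 48.5% in pericytes. Lama4 held 45.3% and 48.4% in pericytes and 53.9% and 59.6% in endothelium.

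**Figure D3:**
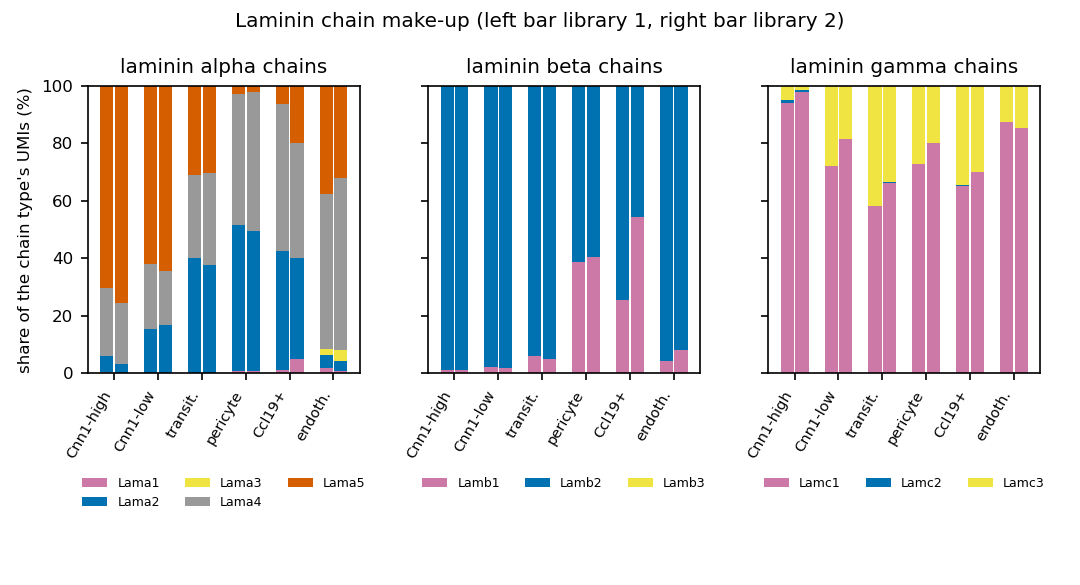
Share (%) of the UMIs of each laminin chain type taken by each gene, in 6 classes, with replicate 1 as the left and replicate 2 as the right bar of each pair (library 1 and library 2 in the title). The Lama5 share of α chain UMIs was 70.1% and 75.5% in Cnn1-high cells and 2.94% and 2.11% in pericytes, and the Lamb1 share of β chain UMIs was highest in pericytes and Ccl19-positive cells.

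Among the β chains, Lamb2 was found in every class and Lamb1, among the 5 tested classes, was highest in pericytes. Lamb1 was at 177 and 124 CPM in pericytes, 35.4 and 26.1 in transitional cells, 10.7 and 8.11 in Cnn1-low cells, 4.72 and 4.74 in Cnn1-high cells and 8.66 and 13.98 in endothelium. Every pericyte value was above every value of the other 4 classes. The untested Ccl19-positive cells had 93.6 and 131 CPM. The smooth muscle minus pericyte difference was -4.17 ± 0.18 (SE, adjusted p = 5.05e-08) and the pericyte minus endothelium difference 3.46 ± 0.22 (SE, adjusted p = 6.5e-07) in edgeR. Lamb2, the β2 chain, was at 538 and 480.5 CPM in transitional cells, 500.1 and 457 in Cnn1-low cells, 380.3 and 375 in Cnn1-high cells, 280.1 and 182 in pericytes and 192 and 161 in endothelium. It was 1.23 ± 0.12 (SE, adjusted p = 1.78e-05) higher in smooth muscle than in pericytes, and pericytes and endothelium differed by 0.28 ± 0.14 (SE, adjusted p = 0.121), which did not pass edgeR's test. The Lamb1 share of β chain UMIs was 38.7% and 40.6% in pericytes and 1.22% and 1.25% in Cnn1-high cells.

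The γ chains Lamc1 and Lamc3 had their highest levels among the tested classes in pericytes in both libraries. Lamc1, the common γ1 chain, was at 773 and 699.9 CPM in pericytes, 330.2 and 314 in transitional cells, 225 and 238 in Cnn1-low cells, 171 and 234 in Cnn1-high cells and 93.5 and 112 in endothelium. Both pericyte values were above all others, and Cnn1-high and Cnn1-low cells overlapped. Lamc3, the γ3 chain, was at 290.1 and 174 CPM in pericytes, 238 and 158 in transitional cells, 86.4 and 53.7 in Cnn1-low cells, 8.57 and 3.16 in Cnn1-high cells and 13.3 and 19.1 in endothelium. Pericytes and transitional cells overlapped for this gene, with an edgeR difference of -0.11 ± 0.21 (SE, adjusted p = 0.786), whereas Lamc1 was lower in transitional cells, at -1.09 ± 0.14 (SE, adjusted p = 0.000319). Within smooth muscle, Lamc3 was lower in Cnn1-high cells, at -3.19 ± 0.29 (SE, adjusted p = 0.000367), while the Lamc1 difference was -0.15 ± 0.14 (SE, adjusted p = 0.757), all by edgeR.

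Among the fibrillar collagens, Col1a2 was broad in mural cells while its usual partner Col1a1 was low. Col1a2 was at 376 and 293 CPM in pericytes, 336 and 272 in transitional cells, 259 and 158 in Cnn1-high cells, 245 and 192 in Cnn1-low cells and 12.1 and 12.5 in endothelium. Its smooth muscle minus pericyte difference of -0.31 ± 0.13 (SE, adjusted p = 0.0808) did not pass edgeR's test, and pericytes exceeded endothelium by 4.60 ± 0.20 (SE, adjusted p = 6.87e-08). Col1a1 was at 9.65 and 11.5 CPM in pericytes and between 0 and 2.74 in the other 4 tested classes. Its smooth muscle minus pericyte difference was -2.32 ± 0.41 (SE, adjusted p = 0.000925) in edgeR, a call lost when Ccl19-positive cells were kept in the other classes. When cells with a UMI of Dcn, Lum, Pdgfra or Slc6a13 were left out, a setting chosen after the data were seen, Col1a1 in pericytes was at 0.562 and 0.157 CPM and Col1a2 at 358 and 276. Col1a2 thus kept its level in pericytes without these cells and Col1a1 did not.

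Col3a1, the type III chain of distensible vessel walls, had 2 high groups among the tested classes. The untested Ccl19-positive cells had more, at 3904 and 632 CPM. Among the tested classes, Col3a1 was at 254 and 99.6 CPM in Cnn1-high cells and 218 and 154 in pericytes. The classes between them in Acta2 level were lower, with 57.3 and 27.04 CPM in Cnn1-low and 52.1 and 24.6 in transitional cells. Endothelium had 5.196 and 3.87 CPM. Cnn1-high cells and pericytes overlapped, and both lay above the Cnn1-low and transitional values of both libraries. The Cnn1-high minus Cnn1-low difference was 2.16 ± 0.22 (SE, adjusted p = 0.000516) and the transitional minus pericyte difference -2.24 ± 0.23 (SE, adjusted p = 7.5e-05) in edgeR. The first was lost with no library block and the second when Ccl19-positive cells were kept in the other classes. A Col3a1 UMI was present in 57.96 and 31.7% of Cnn1-high cells and 44.9 and 26.7% of pericytes, against 1.16 and 0.817% of oligodendrocytes. At 2000 UMIs per cell the shares were 29.1 and 16.3%, 28.5 and 21.8% and 0.385 and 0.131%, over the same cells as for Lama5. Without the cells that had a fibroblast marker UMI, Col3a1 in pericytes was at 174 and 129.5 CPM.

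The type V chains, which co-assemble with type I and set fibril width, differed in where they were found. Col5a2 was at 86.4 and 61.5 CPM in pericytes, 35.6 and 32.03 in transitional cells, 35.7 and 14.2 in Cnn1-high cells, 24.1 and 13.2 in Cnn1-low cells and 12.1 and 4.09 in endothelium. Col5a3 was at 56.6 and 57.7 CPM in pericytes against at most 11.1 in any other tested class. Col5a1 was at 16.1 and 6.32 CPM in Cnn1-high cells and 3.62 or less in the other 4 tested classes, with no UMI in endothelium in either library. Against a floor of 3 counts per library in endothelium, the Col5a1 levels in Cnn1-high cells were 9.31-fold and 9.80-fold higher. These ratios leave out the counting error in Cnn1-high cells, where 3 counts make 4.74 CPM in replicate 2. The smooth muscle minus pericyte difference was -3.41 ± 0.15 (SE, adjusted p = 6.31e-08) for Col5a3, -1.37 ± 0.19 (SE, adjusted p = 0.000202) for Col5a2 and 1.72 ± 0.42 (SE, adjusted p = 0.00861) for Col5a1 by edgeR, the last lost in 3 of the 10 other settings. Col27a1, a fibril-forming chain of cartilage, was at 74.5 and 74.6 CPM in pericytes, 29.9 and 43.9 in transitional cells, 11.4 and 12.2 in Cnn1-low cells, 9.003 and 7.901 in Cnn1-high cells and 2.31 and 2.37 in endothelium. The 4 mural classes were in this order in both libraries and did not overlap. The difference between Cnn1-low and Cnn1-high cells did not pass edgeR's test. Oligodendrocytes were at 11.8 and 8.47 CPM, near the smooth muscle values.

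Among the tested classes, Col18a1 was highest in both smooth muscle classes and Col8a1 in Cnn1-high cells. Other collagens that are not fibrillar, such as Col26a1 and Col28a1, peaked elsewhere. In both libraries the untested Ccl19-positive cells had more, at 437 and 131 CPM for Col18a1 and 349 and 196 for Col8a1. Replicate 2 had only 10 such cells. Col18a1, a basement membrane collagen whose C-terminal piece is endostatin, was at 269 and 111 CPM in Cnn1-high cells, 87.1 and 56.8 in Cnn1-low cells, 42.1 and 17.8 in endothelium, 20.6 and 12.7 in transitional cells and 12.3 and 4.96 in pericytes. Both smooth muscle classes lay above all other tested classes, and Cnn1-high lay above Cnn1-low cells in both libraries. Smooth muscle exceeded pericytes by 4.14 ± 0.19 (SE, adjusted p = 7.02e-08), and Cnn1-high exceeded Cnn1-low cells by 1.45 ± 0.18 (SE, adjusted p = 0.00132) in edgeR, a call lost with no library block. Col8a1, a short-chain collagen of vessel walls, was at 127 and 112 CPM in Cnn1-high cells, 35.8 and 34.1 in Cnn1-low cells, 31.2 and 29.2 in pericytes, 27.98 and 27.6 in transitional cells and 5.77 and 1.94 in endothelium. The Cnn1-high values stood more than 3-fold above every other tested class, with a Cnn1-high minus Cnn1-low difference of 1.87 ± 0.18 (SE, adjusted p = 0.000429) in edgeR.

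Col14a1, a collagen that binds along fibrils, had its tested maximum in Cnn1-low cells. It was at 46.1 and 53.7 CPM there, 15.4 and 20.9 in transitional cells, 19.1 and 13.98 in endothelium, 7.803 and 7.901 in Cnn1-high cells and 0.749 and 0.451 in pericytes. Pericytes were at about the oligodendrocyte level of 0 and 0.446 CPM. Smooth muscle exceeded pericytes by 5.32 ± 0.29 (SE, adjusted p = 1.96e-07) and Cnn1-high cells were below Cnn1-low cells, at -2.52 ± 0.23 (SE, adjusted p = 0.000367), in edgeR. Col28a1, a collagen of peripheral nerve sheaths, was highest in transitional cells at 37.3 and 32.03 CPM, with 15.3 and 9.02 in pericytes, 10.2 and 6.08 in Cnn1-low cells and 0.429 and 0 in Cnn1-high cells. The transitional values lay above all others in both libraries and exceeded pericytes by 1.61 ± 0.21 (SE, adjusted p = 0.000438) in edgeR. Col26a1 was highest in pericytes, at 41.97 and 26.4 CPM there and at most 8.89 in any other tested class, and its smooth muscle minus pericyte difference was -4.36 ± 0.26 (SE, adjusted p = 3.52e-07) in edgeR.

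The remaining named collagens were low in the tested classes. Col6a1, a chain of the beaded microfibrils of type VI, lay between 0 and 7.29 CPM, and its partner Col6a2 was highest in transitional cells at 41.2 and 22.3 CPM, against 20.4 and 21.3 in pericytes. Neither passed edgeR's test between smooth muscle and pericytes (adjusted p = 0.361 and 0.115). Col6a1 was at 7.29 and 0 CPM in Cnn1-high cells against 0.8202 and 0.676 in Cnn1-low cells, an edgeR difference of 3.003 ± 0.66 (SE, adjusted p = 0.0259). The call rested on replicate 1: in replicate 2 alone the log2 ratio was -1.27. Col16a1 lay between 0.215 and 6.29 CPM in the tested classes. Col6a1, Col16a1, Col5a1 and Col1a1 reached a mean of 20 CPM in Ccl19-positive cells alone.

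Across all members, smooth muscle and pericytes differed in both directions. Of the 36 tested members, 8 were higher and 20 lower in smooth muscle than in pericytes, where 20.3% of all 12373 genes tested were higher and 25.5% lower by edgeR. By kind, 6 of 27 tested collagens were higher and 14 lower, and 2 of 9 laminins were higher and 6 lower. The median log2 difference was -1.41 over the members and -0.10 over all genes. The members higher in smooth muscle were Col14a1, Lama5, Col18a1, Col4a5, Col5a1, Col8a1, Lamb2 and Col4a6. Over the 5 tested classes, 19 of the 36 tested members had their highest level in pericytes in both libraries. Another 4 were highest in transitional cells, 3 in Cnn1-high cells, 3 in Cnn1-low cells and 1, Lama3, in endothelium. The other 6 had a different highest class in each library. The share of all genes highest in each class was not counted, so these numbers do not show a preference of the chains.

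**Figure D4:**
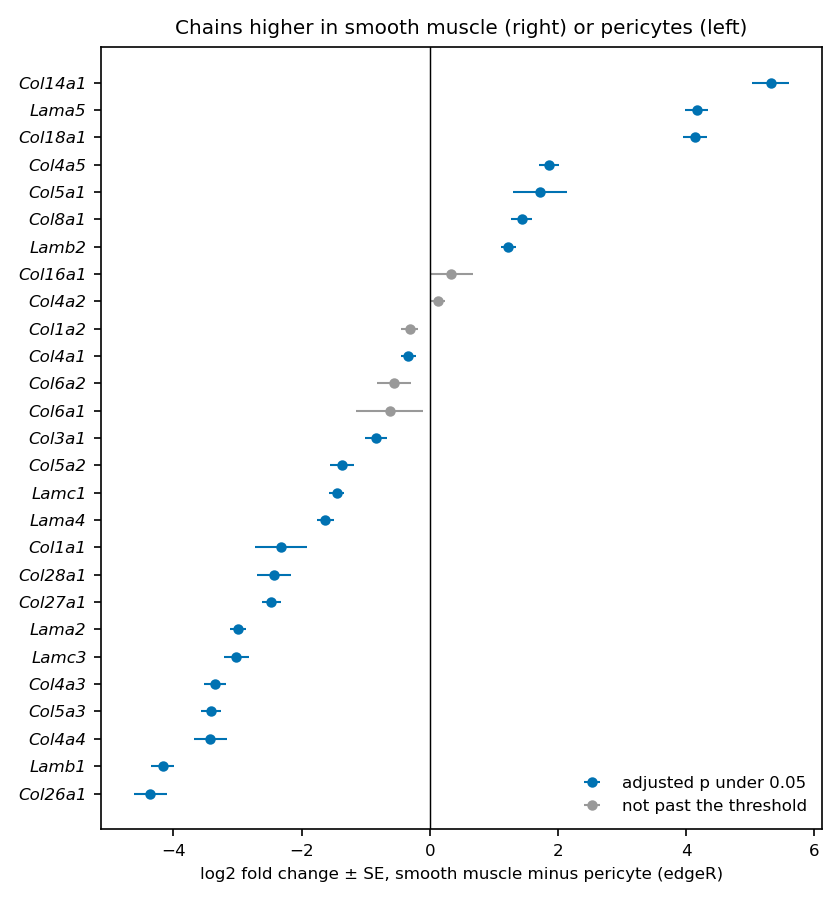
Smooth muscle minus pericyte log2 fold change with its standard error for the 27 named members, from edgeR over 2 libraries, ordered by value; colour marks whether the adjusted p was under 0.05. Values run from 5.32 for Col14a1 to -4.36 for Col26a1, and Col4a2, at 0.12, is near 0.

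Against endothelium, most members were higher in pericytes. Of the 36 tested members, 28 were higher in pericytes and 4 lower, beside 23.1% and 23.4% of all genes, and the median difference was 3.23 over the members (3.12 with Col5a1, which has no endothelial UMI, at its bound) and 0.03 over all genes. Those lower in pericytes were Lama3, Col14a1, Lama5 and Col18a1. Lama3, a chain known from epithelial basement membranes, had no UMI in Cnn1-low and transitional cells and was at 3.46 and 6.45 CPM in endothelium. It is not among the named members and is given here because it was the only tested member highest in endothelium in both libraries. Lamc1 was 2.74 ± 0.15 (SE, adjusted p = 1.93e-07) and Lama2 5.02 ± 0.19 (SE, adjusted p = 3.17e-08) higher in pericytes by edgeR. Lama2 in endothelium was below its oligodendrocyte level of 13.8 and 26.3 CPM, which cannot be taken as a free RNA level. Up to 3.63% of endothelial cells had a fibroblast marker UMI, against 32.9% and 27.4% of pericytes, and the comparison was repeated without all such cells. Col15a1, at 5.43 and 9.13 CPM in pericytes with them and 0.281 and 0.313 without, then lost its calls against both smooth muscle and endothelium, while Lama2 and Lamc1 kept theirs.

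Smooth muscle exceeded endothelium in 23 of the 36 tested members and was lower in 4, beside 26.2% and 26.7% of all genes, with medians of 1.98 and -0.02. The 4 lower were Lama3, Col9a3, Lamb1 and Lama4. The Lamb1 difference of -0.71 ± 0.26 (SE, adjusted p = 0.0412) in edgeR was lost in 5 of the 10 other settings, and in replicate 1 alone the log2 ratio was 0.11. The Col9a3 call rested on replicate 1, with 24.8 and 0.215 CPM in endothelium and log2 ratios of -3.20 and -0.11 in the single libraries. Col4a5 was 4.63 ± 0.23 (SE, adjusted p = 5.75e-08) and Col8a1 4.60 ± 0.26 (SE, adjusted p = 1.4e-07) higher in smooth muscle by edgeR. Col4a1 and Col4a2, the most abundant members, differed by less, at 0.57 ± 0.13 and 0.52 ± 0.12 (SE, edgeR adjusted p = 0.00317 and 0.00483).

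Within smooth muscle, 6 members were higher and 5 lower in Cnn1-high than in Cnn1-low cells, beside 2.22% and 3.55% of all genes, with medians of -0.01 over the members and -0.03 over all genes. The higher were Col13a1, Col6a1, Col5a1, Col3a1, Col8a1 and Col18a1, and the lower Col28a1, Lamc3, Col4a3, Col14a1 and Lama2. With no library block, 1 member was higher, and the Cnn1-high class of replicate 2 held only 126 cells. The median mitochondrial share of UMIs was 12.5% and 7.998% in Cnn1-high cells and 10.01% and 6.95% in Cnn1-low cells. Among cells under 10%, which left 149 of 1168 and 110 of 126 Cnn1-high cells, 3 members were higher. Col13a1, a transmembrane collagen named after its values were seen, was at 27.6 and 1.58 CPM in Cnn1-high cells and 0.482 and 0.338 in Cnn1-low cells. Its edgeR difference was 5.61 ± 0.83 (SE, adjusted p = 0.00343), and the level in Cnn1-high cells of replicate 2 was 1 UMI.

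Transitional cells, gated at intermediate Acta2, lay between Cnn1-low smooth muscle and pericytes in both libraries for 16 of the 27 named members. The share of all genes that lay between was not counted, so the 16 cannot be read as a trait of these chains. Against pericytes, 7 of the 36 tested members were higher and 18 lower, beside 9.38% and 8.26% of all genes, with medians of -0.76 (-0.67 with 2 members at their bound) and -0.07. The 7 higher were Col14a1, Lama5, Col28a1, Col4a5, Lamb2, Col18a1 and Col4a6. Lama5 was 3.40 ± 0.18 (SE, adjusted p = 1.72e-06) and Lamb2 1.26 ± 0.14 (SE, adjusted p = 0.000119) higher by edgeR, while Lamb1 was lower, at -2.16 ± 0.20 (SE, adjusted p = 4.36e-05). With no library block 8 members were lower in place of 18, and the calls of Lama2 and Lama4 were among those lost.

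The Ccl19-positive mural cells had the highest levels of the fibrillar chains Col3a1, Col1a1, Col1a2 and Col5a1 among the 6 classes in replicate 1, with values from 103 cells in replicate 1 and 10 in replicate 2 and therefore no test. Without the Ccl19 gate, 53 of the 103 cells would have counted as pericytes, 24 as transitional cells, 8 as Cnn1-high and 7 as Cnn1-low smooth muscle, and 11 fell in no other class. In replicate 1, 27 members had at least 20 CPM in Ccl19-positive cells or pericytes, and not all of them were named ones. Of these, 14 were at least 2-fold above pericytes and 5 at least 2-fold below, beside 7.24% and 8.87% of 7428 such genes. The median ratio was 2.37 over the members and 0.902 over all these genes. A member could enter through Ccl19-positive cells alone, as Col1a1, Col5a1 and Col6a1 did, so these counts are a description only. Among the 27 named members, where the same holds, 13 were at least 2-fold above pericytes and 6 at least 2-fold below. Col3a1 was at 3904 and 632 CPM, 17.9 (17.02 to 18.9) times the pericyte level in replicate 1 and 4.097 (2.73 to 5.91) times in replicate 2, with exact 95% intervals that cover counting error only. Col1a1 was at 458 CPM in replicate 1, a ratio of 47.5 (38.2 to 59.5). In replicate 2 Col1a1 had no UMI among 45912, which allows up to 65.3 CPM. Col1a2 was at 1228 and 501 CPM, with ratios of 3.26 (3.05 to 3.48) and 1.71 (1.08 to 2.57). Of the other named fibrillar chains, Col5a2 was 4.09 (3.60 to 4.64) times the pericyte level in replicate 1. Col5a3 and Col27a1 lay below pericytes there, at 0.409 (0.254 to 0.625) and 0.198 (0.108 to 0.334) times. In replicate 2 the ratios were 1.42 (0.384 to 3.65) for Col5a2 and 0.876 (0.18 to 2.57) for Col27a1, and Col5a3 had no UMI.

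Col5a1 and members of other collagen types were also above the pericyte level in replicate 1. Col5a1 was 50.1 (32.5 to 79.8) times the pericyte level in replicate 1 and 14.9 (0.3498 to 98.98) times in replicate 2, there from 1 UMI. Col6a1 was 43.7 (30.3 to 64.5) times the pericyte level in replicate 1, but had no UMI in the Ccl19-positive cells of replicate 2, where the upper limit of the ratio was 19.7, below the interval of replicate 1. Col14a1 was 269 (134 to 633) times the pericyte level in replicate 1, from 8 pericyte UMIs, and had no UMI in the Ccl19-positive cells of replicate 2, with an upper limit of 293. Col18a1 was at 437 and 131 CPM in Ccl19-positive cells, beside 269 and 111 in Cnn1-high smooth muscle. That was 35.6 (29.2 to 43.7) times the pericyte level in replicate 1 and 26.4 (9.18 to 62.1) in replicate 2, and for Col8a1 the ratios to pericytes were 11.2 (9.58 to 13.1) and 6.72 (3.04 to 12.9). Col4a1, Col4a2, Lamc1 and Lama2 lay closer to the pericyte level. Col4a1 was 2.37 (2.28 to 2.46) and 1.803 (1.47 to 2.19) times, and Col4a2 2.46 (2.34 to 2.57) and 1.803 (1.37 to 2.33) times the pericyte level. Lamc1 was 0.805 (0.7397 to 0.876) and Lama2 0.627 (0.531 to 0.735) times in replicate 1. Col4a3 lay below pericytes, at 0.0701 (0.0191 to 0.1805) times in replicate 1.

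Fibroblast markers and doublet scores were measured in the same cells. The 6 fibroblast markers summed to 312 and 240 CPM in Ccl19-positive cells, against 268 and 398 in pericytes, with Lum at 0 in both libraries of Ccl19-positive cells. Dcn was at 213 and 43.6 CPM there and 38.3 and 61.9 in pericytes. In the 67 cells of replicate 1 without a UMI of Dcn, Lum, Pdgfra or Slc6a13, Col3a1 was at 4055 CPM and Col1a1 at 369. Of the 103 cells, 11.7% were among the highest 6% of doublet scores, and Col3a1 was at 4326 CPM in the 91 others. The smooth muscle markers summed to 13148 and 8277 CPM and the pericyte markers to 2850 and 2832 CPM in these cells.

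**Figure D5:**
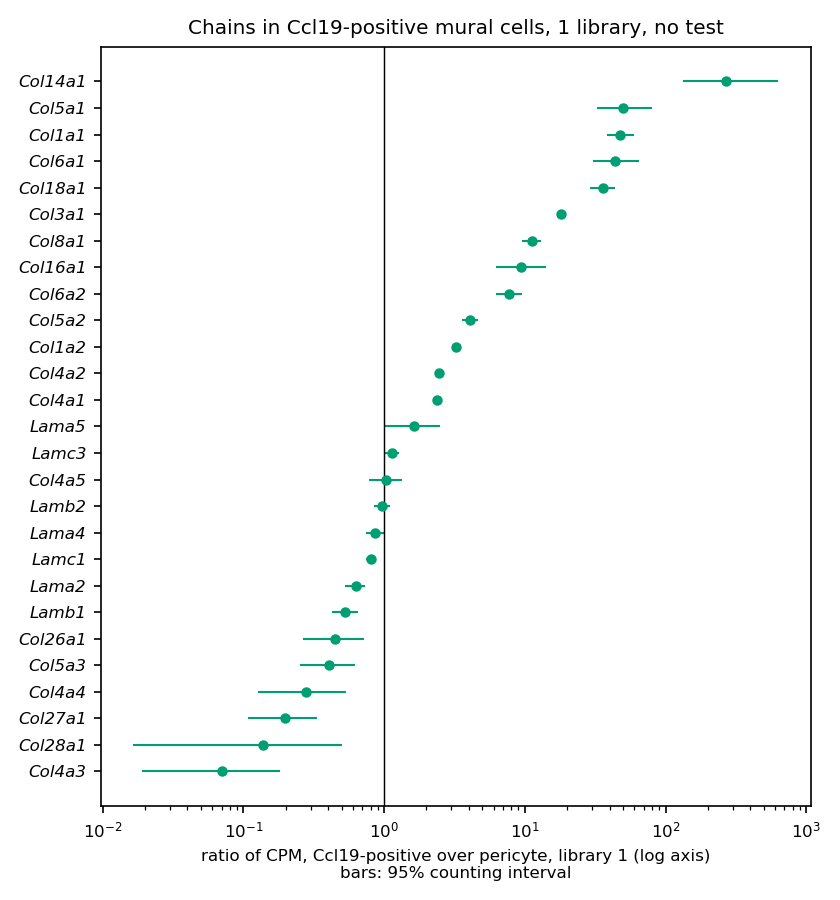
Ratio of the level in Ccl19-positive cells to that in pericytes in replicate 1 (log axis) for the named members, with exact 95% counting intervals. Replicate 2, with 10 Ccl19-positive cells, is not shown. In replicate 1 the fibrillar chains Col3a1, Col5a1 and Col1a1 lie at 17.9 or more. The fibrillar chains Col5a3 and Col27a1 lie at 0.409 and 0.198, and Col4a3 at 0.0701.

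The genes that build, bind and remodel these chains were counted from lists of 5 kinds. Between smooth muscle and pericytes, 5 of the 14 tested other basement membrane genes were higher in smooth muscle and 8 lower, beside 20.3% and 25.5% of all genes tested, with a list median of -0.63 against -0.10 over all genes. Npnt, nephronectin, a ligand of integrin α8β1, was at 112 and 123 CPM in Cnn1-high cells and 0.468 and 0.113 in pericytes, and Tinagl1, a matricellular protein, at 1670.2 and 1209 CPM in Cnn1-high cells and 57.8 and 33.5 in pericytes. Fbln1, fibulin-1, was at 41.1 and 44.9 CPM in pericytes and 0.429 and 0 in Cnn1-high cells, and its difference was -5.74 ± 0.23 (SE, adjusted p = 2.78e-08) in edgeR. Of 12 tested receptors, 10 were higher in smooth muscle and 2 lower (median 0.69). Itga3, the α3 subunit of a laminin-binding integrin, was 4.00 ± 0.23 (SE, adjusted p = 2.69e-07) and Bcam, a receptor of the laminin α5 chain, 1.77 ± 0.11 (SE, adjusted p = 5.06e-07) higher by edgeR. Bcam was at 539 and 574 CPM in Cnn1-high cells and 231 and 199 in pericytes. Itga6 and Itga1, subunits of a laminin-binding and a collagen-binding integrin, were lower, at -3.63 ± 0.45 and -0.99 ± 0.09. Itga6 was at 8.06 and 24.3 CPM in pericytes and 339 and 378 in endothelium. The 6 endothelial markers summed to 444 and 824 CPM in pericytes, 11.1 to 56.5 CPM in the smooth muscle classes and 14038 and 12136 CPM in endothelium, and their part in the Itga6 difference was not tested.

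Enzymes of collagen maturation were counted in the same comparison. Of 22 tested genes of collagen modification and secretion, 5 were higher in smooth muscle and 10 lower (median -0.33), where the share of all genes was 20.3% higher and 25.5% lower. Adamts2 and Adamts14, proteases that trim the N-terminal propeptide of fibrillar collagens, were higher by 4.27 ± 0.36 and 3.64 ± 0.34, and P4ha1, a collagen prolyl 4-hydroxylase subunit, was lower, at -1.27 ± 0.13. Of 6 tested cross-linking genes 4 were higher and 2 lower. Lox, lysyl oxidase, was 4.51 ± 0.30 (SE, adjusted p = 9.26e-07) higher by edgeR, with 75.9 and 139 CPM in Cnn1-high cells and 6.84 and 3.27 in pericytes. Pxdn, which forms the sulfilimine bonds of collagen IV, was lower, at -0.86 ± 0.19. Of 14 tested degradation genes 7 were higher and 4 lower (median 1.60), with Timp2, a metalloprotease inhibitor, 4.05 ± 0.13 higher and Mrc2, an endocytic collagen receptor, at -4.36 ± 0.17.

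The same lists were counted in the other comparisons. Receptors were higher in pericytes than in endothelium for 9 of 12 and lower for 2 (median 1.44), beside 23.1% and 23.4% of all genes with a median of 0.03. Itga7, the muscle laminin receptor subunit, was higher by 3.91 ± 0.23, and Itga6 was lower, at -4.67 ± 0.31. In the same comparison, 11 of 22 modification and secretion genes were higher and 2 lower (median 0.60), beside the same shares of all genes, led by Pcolce, a procollagen C-proteinase enhancer, at 5.27 ± 0.17. Between Cnn1-high and Cnn1-low cells, 4 of 14 other basement membrane genes were higher and 2 lower (median -0.10), beside 2.22% and 3.55% of all genes with a median of -0.03. Among them Hspg2, perlecan, was higher (1.23 ± 0.14) and Agrn, agrin, lower (-0.80 ± 0.13). In transitional cells against pericytes, 7 of 12 receptors were higher (median 0.61), beside 9.38% of all genes with a median of -0.07. Hspg2 was lower in transitional cells than in pericytes, at -1.69 ± 0.16. Adamts4, a matrix protease of the list, stood far apart between the libraries, at 1.83 and 161 CPM in Cnn1-low cells.

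The other 28 members were low in all 6 classes. Of these, 19 did not pass the filter on low counts, with totals of 1 to 82 UMIs over the 6 classes and both libraries (median 7) and none at 0. Among the 9 that were tested, Col7a1, Col12a1, Col15a1, Col23a1 and Lama1 were lower in smooth muscle than in pericytes, with Col12a1 at 12.8 and 11.04 CPM in pericytes and Lama1 at 4.96 and 3.94. Lamb3, a chain of epithelial laminin, had 3 UMIs in the 6 classes.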

How the data were processed

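Libraries of Dendra2-sorted cells from 2 brain samples were built, per the labels, with 3′ v3.1 chemistry of 10x Genomics. The authors deposited raw UMI count matrices, which the file headers attribute to Cell Ranger 3.1.0. CASAVA 1.8 and Seurat 2.3.4 appear in the submitters' processing notes with no role, and the build used for alignment was not given in the sources used here. GENCODE M21 (GRCm38) holds 30766 of the 30905 gene identifiers, all 55 members among them, and 40 members had a RefSeq promoter entry.

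Cells were barcodes of 500 or more genes and 1000 or more UMIs whose mitochondrial share was below 20% (7697 and 6427 cells). All 14 barcodes shared by the libraries were kept. In each library 12 cells met both a mural and the endothelial gate and were left out. Fibroblast-gated cells and precursors of oligodendrocytes served for description only. The Scrublet caller in scanpy 1.11.5 marked 202 cells (2.62%) in replicate 1 and 1 (0.0156%) in replicate 2, too few for the caller to have worked there, and doublets were left in; leaving out the highest 6% of scores is an alternative.

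The 10 sums of counts (5 classes in each library) were fitted with edgeR 4.0.16 (TMM scaling, filterByExpr, quasi-likelihood test, library as a block, 4 residual degrees of freedom, Benjamini-Hochberg threshold of 0.05 over 12379 genes). The block was kept because all classes of a library come from the same sorted preparation; deviations of 2 classes in the same library correlated with r between 0.33 and 0.67 across genes. Calls over all genes leave out the 6 gate genes. Classes with under 20 cells in a library were not fitted. Alternatives were edgeR's RLE scaling, no filter, DESeq2 1.42.0, no block, 5 other sets of cells and each library left out, plus leaving out cells with a UMI of a fibroblast marker, which was chosen after seeing the data. Members were named at a mean of at least 20 CPM in a class, and from each pathway list at most the 2 called genes of largest difference in each direction and comparison. The members, lists and comparisons were chosen with earlier results of these data known.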

Additional observations from a re-analysis of the deposited data

Results flagged for a closer look

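Some members were higher in cells outside the 6 classes than in any of the 5 tested classes, in both libraries. These cells were too few or of another lineage and entered no comparison, and the excess was not tested. In the 4 and 14 fibroblast-gated cells, which were gated on Dcn, the means over libraries were 2076 CPM for Col1a1, 2014 for Col1a2, 1528 for Col3a1, 872 for Col6a1, 775 for Col6a2, 445 for Col15a1, 428 for Col4a5, 175 for Col13a1, 158 for Col16a1, 156 for Col12a1 and 127 for Col4a6. Col1a1 was at 2150.2 and 2002 CPM in these cells of replicate 1 and replicate 2, against at most 11.5 CPM in a tested class. The libraries differed more for Col6a1 (1306 and 439 CPM), Col6a2 (1226 and 324) and Col15a1 (261 and 629).

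In oligodendrocyte precursors (115 and 42 cells), Col9a3, a chain of the fibril-associated collagen IX, had a mean of 471 CPM and Col11a2 a mean of 58.3 CPM. Col9a3 was at 727 and 216 CPM in the precursors and had a mean of 84.5 CPM in oligodendrocytes, so the precursor level differed more than 3-fold between the libraries. Col11a2 was at 94.3 and 22.3 CPM in the precursors.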

How the results depend on the processing

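Of 10 counts of members called under 10 other settings, 94 of 100 values stayed within 1.5 times the main count. With no replicate block, members higher in Cnn1-high than in Cnn1-low cells fell from 6 to 1, members lower in transitional cells than in pericytes from 18 to 8, and members lower in smooth muscle than in endothelium from 4 to 2, which was also the count with DESeq2. The Cnn1-high count was 10 with no filter beyond 1 UMI and 3 in cells under 10% mitochondrial UMIs. Over all genes, leaving out the block changed the higher and lower counts from 275 and 439 to 13 and 53 (Cnn1-high against Cnn1-low), from 1161 and 1022 to 506 and 390 (transitional against pericyte), from 2517 and 3160 to 1483 and 1838 (smooth muscle against pericyte) from 2863 and 2892 to 1826 and 1850 (pericyte against endothelium) and from 3244 and 3306 to 2348 and 2449 (smooth muscle against endothelium, 2812 and 3030 with DESeq2). Under 10% mitochondrial UMIs, the Cnn1-high counts were 148 and 154. Of 123 member calls, 87 kept their direction and call under each of the 10 settings in which the gene was tested. These settings do not include leaving out a library. Without replicate 1, the log2 ratio of 57 calls moved by at least the standard deviation of the 2 single-library ratios, and 1 reversed. Without replicate 2, 34 moved and 1 reversed. That yardstick grows with the gap between the libraries, so the counts of moved calls do not show how stable the calls were. Without cells with a fibroblast marker UMI, Col15a1 changed sign against pericytes (0.29 in place of -3.16) and in pericytes against endothelium (-1.62 in place of 3.31). Col9a3 in smooth muscle minus endothelium was 0.47 without the highest doublet scores (main -2.96), and Col1a1 in transitional cells minus pericytes 0.94 with Ccl19-positive cells kept (main -2.76). Leaving out a replicate gave Lamb1 in smooth muscle minus endothelium a range of -0.98 to 0.11, and Col6a1 in Cnn1-high minus Cnn1-low cells a range of -1.27 to 3.03. The cause of these changes was not tested. The planned test of Ccl19-positive cells against pericytes was not run, with 10 cells in replicate 2. Depth limits the 19 untested members, with at most 82 UMIs each.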
